A study of Schmidtea mediterranea with 177 samples.

Results

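The muscle cells are 115 of the 177 single cells that were sequenced from the planarian *Schmidtea mediterranea*, a flatworm that regenerates all of its tissues. They are the columns of the deposited count table whose label assigns the cell to muscle, and the other 62 cells carry the non-muscle label. All animals were of the asexual CIW4 strain and had been starved for 7 to 14 days. Each was cut into 10 adjacent regions of the midline, from region 1 at the head tip to region 10 at the tail tip, with the pharynx removed from regions 5 and 6. Non-dividing cells with a 2N DNA content were sorted after Hoechst staining, their cDNA was amplified by SmartSeq2, and only cells positive by qRT-PCR for *collagen* or *troponin* were sequenced. The non-muscle cells had therefore passed the same screen and are not a sample of the other tissues. The muscle cells numbered 11, 6, 6, 10, 23, 12, 9, 13, 13 and 12 in regions 1 to 10, and the non-muscle cells 11, 0, 3, 3, 6, 9, 11, 7, 5 and 7.

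Planarian body wall muscle consists of mononucleate fibres that lie in layers beneath the epidermis and contract through actin and myosin. The same cells are known as a main source of collagens and other extracellular matrix, and they express the secreted signals and receptors that give neighbouring stem cells their position along the body axes. These position genes, which the study named muscle regionally expressed genes (mRGs), include members of the Wnt, FGFRL and Hox families.

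The muscle label rested on principal components of expression in these same cells together with *troponin*, so differences of level between the classes are described here without a test. A transcript is a contig of the dd_Smed_v4 assembly and counts as expressed where a cell holds more than 2 of its reads. Levels are given as cpm, the reads of a transcript scaled to the same total in every cell. They are not corrected for transcript length, so rankings of abundance across transcripts can partly reflect length. Names such as *COL4A6* are best human matches in the study's annotation, and several contigs can share one name. Muscle cells held 19205 to 3884642 reads with a median of 259378, and the cells of region 10 held 1374430 on average against at most 420161 in any other region. Cell numbers in the titles fell into 3 ranges, called here blocks A (55 muscle cells), B (24) and C (36). What the ranges stand for is not stated, nor is the animal or the date behind any cell.

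The label was set beside 6 given markers, which were TNNI2 (dd_Smed_v4_323_0_1) and 5 collagens. Troponin and collagens served in the qRT-PCR screen and in the assignment of the classes, so their values describe the choice and are no independent check of it. All 6 were expressed in 85 of the 115 muscle cells, at least 5 in 106 and at least 4 in 114. The remaining cell, from region 8, expressed 2 of them and was the shallowest of all, with 19205 reads. The summed level of the 6 markers in muscle cells had a lowest value of 729 cpm, a median of 12377 and a highest of 68305. In non-muscle cells it ran from 2.43 to 9118 cpm with a median of 146, so the classes overlapped. Of the 62 non-muscle cells, 5 expressed at least 4 of the markers and 1 expressed all 6. The cell with all 6, from region 9, was the deepest non-muscle cell, with 2702758 reads. Its markers summed to only 126 cpm, below the non-muscle median.

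**Figure D1:**
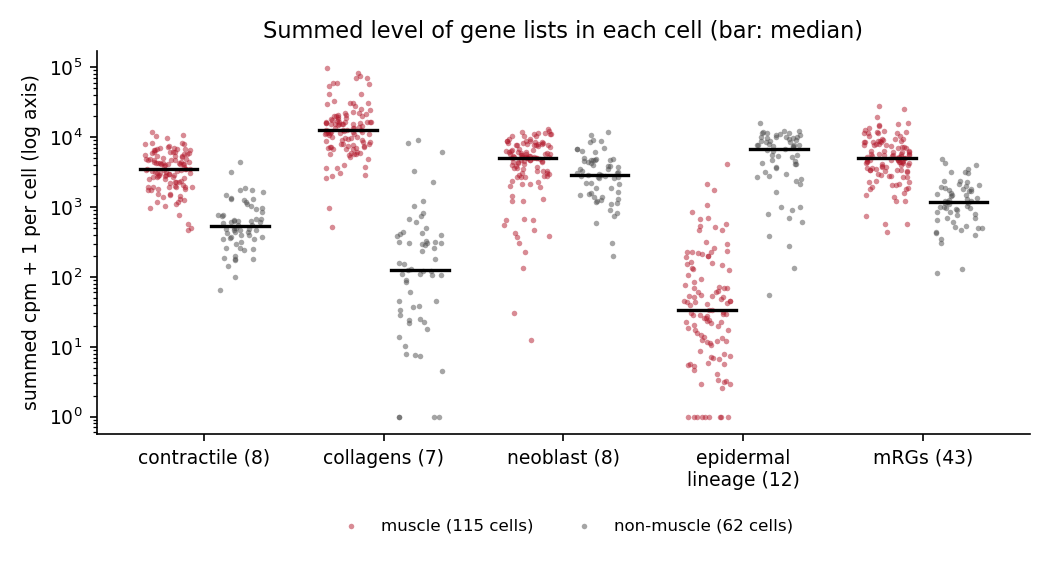
Summed level of 5 gene lists in each cell (summed cpm + 1, log axis), with 1 point per cell for 115 muscle and 62 non-muscle cells and a bar at the median. Collagen sums had a median of 12553 cpm in the muscle class and 125 cpm in the other, and the epidermal lineage list stood the other way round, whereas the neoblast list overlapped almost fully.

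Muscle cells shared a small set of transcripts and added many that were found in few cells. Of 26560 transcripts in the table, 18508 were expressed in at least 1 muscle cell, and 4938 of these (26.7%) were expressed in only 1 or 2 cells. Expression in all 115 cells was reached by 59 transcripts, which held 29.3% of the reads of an average muscle cell. At least 90% of the cells expressed 215 transcripts with 41.6% of the reads, and at least 50% expressed 1452 transcripts with 67.2% of the reads. When every cell was thinned to 50000 reads, which 110 muscle cells could reach, 32 transcripts were in all cells and 129 in at least 90%. The 10 most abundant transcripts held 19.8% of the reads and the 100 most abundant held 38.7%.

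Most of the shared set was not particular to muscle cells. Of the 215 transcripts in at least 90% of muscle cells, 178 were also in at least 90% of non-muscle cells, 25 were in fewer, and 12 were in under 50%. Named members of the last group were the 3 *COL4A6* contigs, myosin heavy chain *DjMHC-B*, the actin cross-linker *FLNA*, the guanine nucleotide exchange factor *ARHGEF17* and a small heat shock protein, *smallhsp*. The other 5 had no name in the annotation and were picked out after their values were seen. dd_Smed_v4_6915_0_1 was expressed in 113 muscle and 11 non-muscle cells, with mean levels of 3986 and 287 cpm. dd_Smed_v4_375_0_1 was expressed in 108 and 19 cells, dd_Smed_v4_1410_0_1 in 106 and 6, dd_Smed_v4_2143_0_1 in 105 and 18, and dd_Smed_v4_223_0_1 in 104 and 11. None of the mRGs was in at least 90% of muscle cells. In the opposite direction, 258 transcripts were in at least 90% of non-muscle cells, and 1 of them was in under 50% of muscle cells. This was the actin *ACTG1* (dd_Smed_v4_246_0_1), expressed in 53 of 115 muscle cells and 60 of 62 non-muscle cells, with mean levels of 106 and 2507 cpm.

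The number of transcripts in a cell was not used to assign the classes and could be tested over the 9 regions that held both. At 50000 reads per cell, 110 muscle cells expressed 2080 ± 440.6 transcripts (SD) and 62 non-muscle cells expressed 2264 ± 612. Muscle minus non-muscle was −225 transcripts in region 1, 99.7 in region 3, −90.3 in region 4, −404 in region 5, 38.1 in region 6, 112 in region 7, −759 in region 8, 14.9 in region 9 and 134 in region 10. Muscle cells thus expressed more transcripts in 5 of the 9 regions, and the deficits in regions 5 and 8 were the largest differences. The mean difference was −120 ± 298 transcripts (SD, n = 9), which did not pass an exact two-sided sign-flip permutation test (p = 0.309, adjusted p = 0.309 over 2 tests). With 9 regions that test can go no lower than 0.00390625. The difference was −11.5 transcripts (adjusted p = 0.875) at 25000 reads per cell, −306 (adjusted p = 0.0547) at 100000 reads and −330 (adjusted p = 0.0625) when a single read counted as expression. Within region and number block it was −169 (adjusted p = 0.203).

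The share of a cell's reads in its own 50 most abundant transcripts was 36.7% ± 13.3 (SD) in muscle and 41.6% ± 16.2 in non-muscle cells. Muscle minus non-muscle averaged −5.11 ± 10.6 percentage points over the 9 regions, was positive in 4 of them, and did not pass the same exact test (p = 0.203, adjusted p = 0.309). Within region and number block the difference was −0.469 points. Among muscle cells the number of transcripts at equal depth was lowest in region 2 (mean 1539), region 9 (1604) and region 3 (1694), and highest in region 1 (2465) and region 6 (2385).

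**Figure D2:**
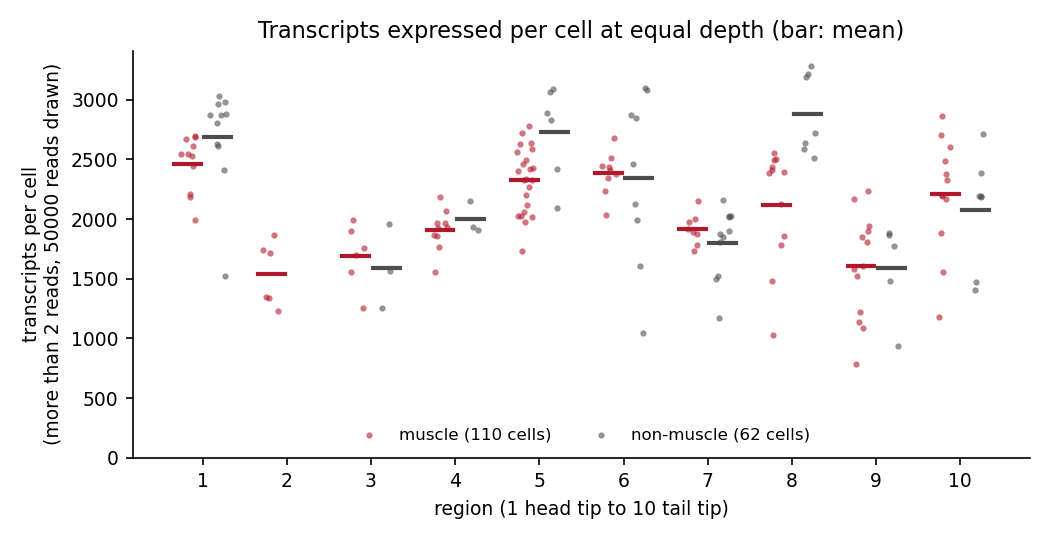
Transcripts with more than 2 reads per cell after drawing 50000 reads (vertical axis) for muscle and non-muscle cells of each region (horizontal axis), with 1 point per cell and a bar at the mean. Muscle means ran from 1539 in region 2 to 2465 in region 1, and non-muscle means lay above them in 4 of the 9 regions with both classes.

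Over transcripts of muscle cells, single muscle cells resembled one another only a little more than they resembled non-muscle cells. Pearson's r of log2(cpm + 1) between pairs of cells was taken at equal depth over the 8398 transcripts in at least 12 muscle cells. That filter left out transcripts found mainly in non-muscle cells, such as *ZFP-1* (0 muscle and 40 non-muscle cells). The likeness between the classes over all transcripts was not measured. The median of r was 0.283 for muscle cells of the same region and 0.273 for muscle cells of different regions. The median was 0.272 between regions 1 and 10 and 0.281 between neighbouring regions. For a muscle and a non-muscle cell it was 0.247, and for pairs of non-muscle cells 0.292. These are descriptions, since pairs share cells and the classes came from the same values.

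Transcripts of the contractile apparatus were led by TNNI2, the inhibitory subunit of troponin. Its level in muscle cells had a lowest value of 63.03 cpm, a median of 1153 and a highest of 5741. In non-muscle cells it ran from 0 to 905 cpm with a median of 34.4. It was expressed in 115 of 115 muscle cells and 52 of 62 non-muscle cells, or in 98.2% and 43.5% of the cells at equal depth. Troponin was part of the rule for the label, so this separation restates the choice of the cells.

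*DjMHC-B* (dd_Smed_v4_2381_0_1), the motor protein of thick filaments, was expressed in 108 muscle cells and 8 non-muscle cells. Its muscle levels ran from 0 to 3233 cpm with a median of 372. *FLNA* (dd_Smed_v4_810_0_1) was expressed in 108 and 6 cells, with means of 1071 ± 1009 (SD) and 40.3 cpm. *CNN3* (dd_Smed_v4_450_0_1), a calponin that binds actin and regulates contraction, was expressed in 103 and 3 cells, with means of 307 ± 339 (SD) and 11.0 cpm. All of these had a higher mean level in muscle in each of the 9 regions with both classes. The match to *LDB3*, a protein of the Z-disc, was expressed in 20 of 115 muscle cells (17.4%, with exact 95% limits of 11.0 and 25.6%) and in 0 of 62 non-muscle cells, which allows up to 4.84% of cells with more than 2 reads by the limit of 3 counts of the total. Binomial intervals and limits cover counting error only. They take cells as independent draws and leave out the spread between regions, number blocks and animals. The reads also carry no molecular identifiers.

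Other members of the contractile list did not separate the classes. *XIRP2* (dd_Smed_v4_921_0_1), an actin-binding repeat protein, was expressed in 91 muscle and 44 non-muscle cells at means of 410.6 and 373.9 cpm. The contigs matching *DMD*, dystrophin, which ties actin to the membrane, were expressed in 18 muscle and 20 non-muscle cells (dd_Smed_v4_5325_0_1) and in 51 and 29 cells (dd_Smed_v4_5252_0_1). Both *DMD* contigs were expressed together in 14 muscle cells, 1 of them alone in 4 and 37, and neither in 60. In all, 5 of the 8 contractile members had a mean at least 4 times higher in muscle. Over the 2227 transcripts in at least 50% of the cells of either class, 5.39% were that much higher in muscle and 1.71% that much higher in non-muscle. The contractile, collagen, neoblast and epidermal lineage lists came at least in part from the transcripts that defined the study's principal components in these cells. All were named from the study's annotation of the same cells, so their counts are no independent evidence of a difference.

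Each of the 7 collagens was expressed in most muscle cells and in fewer than 50% of the non-muscle cells, although 47 of the 62 non-muscle cells expressed at least 1 of them. Collagen IV chains form the network of basement membranes, and the other chains matched here are relatives of fibrillar collagens. The 3 *COL4A6* contigs were each expressed in 114 of 115 muscle cells. For dd_Smed_v4_2337_0_1 the lowest, median and highest muscle levels were 0, 3216 and 19744 cpm. For dd_Smed_v4_1579_0_1 they were 52.1, 2834 and 8638 cpm. For dd_Smed_v4_2197_0_1 they were 0, 2116 and 20232 cpm. These contigs were expressed in 9, 24 and 10 of the 62 non-muscle cells. The muscle cell without them was in region 8 for each contig.

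The *COL24A1* contigs and *COL1A2* were spread less evenly. *COL24A1* dd_Smed_v4_402_0_1 was expressed in 97 muscle cells, with levels from 0 to 23167 cpm and a median of 911. *COL24A1* dd_Smed_v4_649_0_1 was expressed in 87.8% of muscle cells, from 0 to 22643 cpm with a median of 1205. *COL24A1* dd_Smed_v4_702_0_1 was expressed in 84 muscle cells, from 0 to 13641 cpm with a median of 524.96. Non-muscle cells expressed these in 5, 16 and 26 cells. *COL1A2* (dd_Smed_v4_832_0_1) was expressed in 91 muscle cells, with a median of 815 and a highest level of 14377 cpm, and in 2 non-muscle cells, none of which exceeded 30.9 cpm. The region means of *COL24A1* dd_Smed_v4_402_0_1 in muscle were 4673, 93.1, 1427, 1569, 3243, 3574, 1509, 925, 920 and 2536 cpm from region 1 to 10, so regions 1, 5 and 6 stood high and region 2, with 6 cells, stood low. All 7 collagens were expressed together in 72 muscle cells and in 1 non-muscle cell, and 15 non-muscle cells expressed none. All 7 had a mean at least 4 times higher in muscle.

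**Figure D3:**
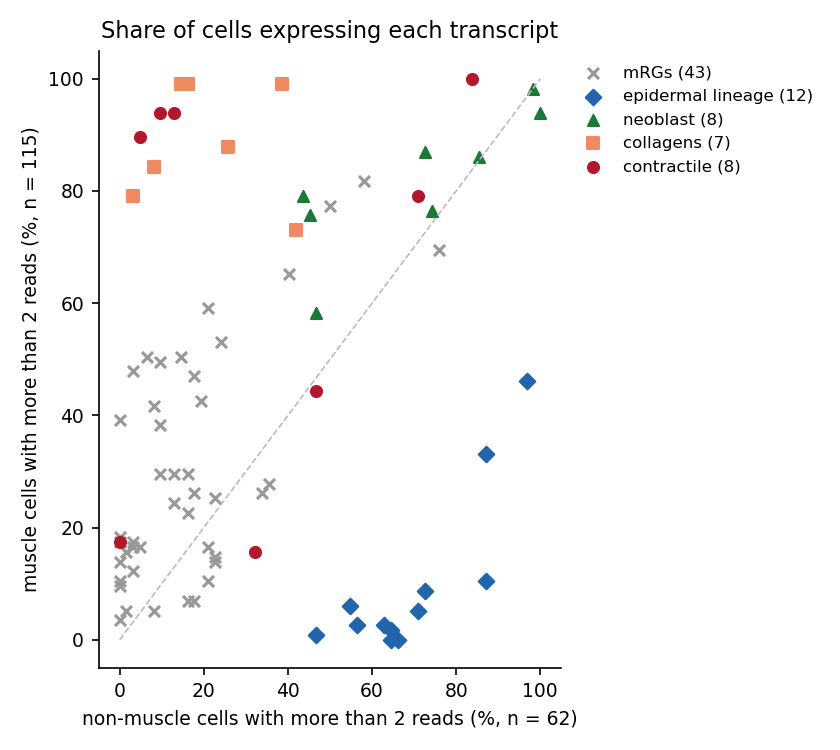
Share of muscle cells (vertical axis, %, n = 115) against the share of non-muscle cells (horizontal axis, %, n = 62) with more than 2 reads, with 1 symbol per transcript and a dashed line of equal shares. The 7 collagens lay between 73.0% and 99.1% of muscle cells and the 12 epidermal lineage transcripts between 0 and 46.1%, with the neoblast transcripts near or above the line.

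Other matrix and adhesion transcripts were mostly sparse. Of 11 members, 1 was expressed in at least 50% of muscle cells. This was *FBN2* (dd_Smed_v4_2649_0_1), a match to fibrillin, which builds elastic microfibrils, expressed in 79 muscle and 12 non-muscle cells at means of 817 and 128 cpm. The cell adhesion molecule *NCAM1* was expressed in 27 muscle and 2 non-muscle cells, at 89.7 and 3.93 cpm. The laminin chain *LAMB1* went the other way, in 8 muscle and 18 non-muscle cells, and the integrin chain *ITGA3* in 10 and 24 cells. The integrin chain *ITGAV* was expressed in 42 and 7 cells. Over the 11 members 8 had the higher mean in muscle, 2 of them at least 4 times higher. This list too was named from the study's annotation of these cells. Counts in favour of muscle can follow from that choice and are no independent evidence. Among the 15672 transcripts in at least 3 cells of either class 53% had the higher mean in muscle, 6.12% at least 4 times, and 10.3% were at least 4 times higher in non-muscle. Of the 13570 transcripts in at least 3 muscle cells, 8229 had the higher mean in muscle.

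*smallhsp* (dd_Smed_v4_2736_0_1) was expressed in 108 muscle and 3 non-muscle cells, at means of 1557 ± 1216 (SD) and 99.1 cpm. *ARHGEF17* (dd_Smed_v4_2922_0_1) was expressed in 105 and 2 cells, at 789 ± 726 (SD) and 13.6 cpm. Both were among the transcripts that defined the muscle side of the first principal component. The 10 transcripts with the largest ratio of mean levels in favour of muscle held *COL1A2*, *COL24A1* dd_Smed_v4_402_0_1 and 8 contigs with no name. dd_Smed_v4_1745_0_1 led them, in 81 muscle and 3 non-muscle cells at means of 1171 and 0.961 cpm. dd_Smed_v4_711_0_1 was expressed in 81 muscle cells and in 0 of 62 non-muscle cells, and dd_Smed_v4_1021_0_1 in 66 and 0. The others were dd_Smed_v4_5321_0_1, dd_Smed_v4_1070_0_1, dd_Smed_v4_701_0_1, dd_Smed_v4_1010_0_1 and dd_Smed_v4_432_0_1, expressed in 58 to 85 muscle cells and 1 to 16 non-muscle cells. Each of the 10 had a higher mean in muscle in all 9 regions, which largely restates their choice by that ratio.

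Transcripts of the epidermal lineage were much lower in muscle cells, where 77 of 115 cells still expressed at least 1 of the 12. Planarian epidermis is renewed by post-mitotic precursors, and *ZFP-1* is a zinc finger gene of its early progenitors. *ZFP-1* (dd_Smed_v4_2946_0_1) was expressed in 40 of 62 non-muscle cells and in 0 of 115 muscle cells, where single cells with 1 or 2 reads reached 12.8 cpm. A count of 0 allows a share of up to 2.61% of cells with more than 2 reads (3 counts of the total), which does not limit cells with fewer. The actin bundling protein *VIL1* (dd_Smed_v4_929_0_1) was expressed in 0 and 41 cells, with a highest muscle level of 6.16 cpm against a non-muscle median of 133 cpm. The spectrin *SPTBN1* was expressed in 10 and 45 cells, the tetraspanin *CD151* in 6 and 44, the fatty acid binding protein *FABP7* in 3 and 39, *COTL1* in 2 and 40, the tumour suppressor homologue *P53* in 1 and 29, *ZFHX3* in 7 and 34, *EPB41L2* in 3 and 35 and *beta-actin* dd_Smed_v4_285_0_1 in 12 and 54. *TAGLN3*, a relative of the smooth muscle protein transgelin, was in 38 and 54 cells, with medians of 4.72 and 424.9 cpm. All 12 members had a mean at least 4 times lower in muscle.

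The summed level of the 12 epidermal lineage transcripts in muscle cells ran from 0 to 4154 cpm with a median of 32.8, and in non-muscle cells from 54.0 to 16079 with a median of 6743. None of the 12 was expressed in 38 muscle cells, and 3 or more were in 14. A single muscle cell expressed 7 of them, and the highest sum belonged to a cell of region 8, which also expressed 4 of the 6 muscle markers. In non-muscle cells all 12 were expressed in 18 cells and at least 8 in 38. Whether any muscle library holds RNA of a second cell was not tested. Outside the list, the transcripts with the largest ratio in favour of non-muscle were dd_Smed_v4_899_0_1, at means of 7.96 and 2853 cpm, and dd_Smed_v4_3_0_1, at 129 and 14718 cpm. The second was expressed in 104 muscle cells and 56 non-muscle cells, with medians of 84.5 and 145 cpm, so its non-muscle mean was carried by few cells with up to 124627 cpm.

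Transcripts on the neoblast side of the second principal component were found in most muscle cells. Neoblasts are the dividing stem cells of planarians, and *SMEDWI-1* is the PIWI protein that marks them. *SMEDWI-1* (dd_Smed_v4_659_0_1) was expressed in 87 of 115 muscle cells and 28 of 62 non-muscle cells. Its muscle levels ran from 0 to 3970 cpm with a median of 469.1, and its non-muscle levels from 0 to 4464 with a median of 3.41. The RNA-binding protein *BRULI* was expressed in 67 and 29 cells, *KHD-1* in 113 and 61, *RKHD1* in 108 and 62, *HMB-1* in 99 and 53, *JUNLI-1* in 88 and 46, *GST-1*, a glutathione S-transferase, in 91 and 27, and *CBFB*, the partner of RUNX factors, in 100 and 45. All 8 had the higher mean in muscle, by 1.11 to 2.02 times, and none by 4 times. The direction held in only 4 to 7 of the 9 regions, for *SMEDWI-1* in 4.

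The summed neoblast list had a median of 5101 cpm in muscle and 2912 cpm in non-muscle cells, with ranges of 11.6 to 13156 and 199 to 11842 that overlapped almost fully. All 8 were expressed in 48 muscle cells and 10 non-muscle cells, and none in 1 muscle cell. By region the muscle median was highest in region 2 (9459 cpm) and lowest in region 9 (2792). The sorting gate kept non-dividing cells of 2N content. *KHD-1* and *RKHD1* were in nearly all cells of both classes.

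The list on the opposite side of that component, which the study assigned to differentiated cells, was lower in muscle for 7 of 9 members. *TRAF-2B* (dd_Smed_v4_4392_0_1), a signalling adaptor, was expressed in 79 muscle and 50 non-muscle cells at means of 1055 and 2780 cpm. The transporter *SLC16A-5* was expressed in 4 and 13 cells at 6.98 and 113 cpm, the only member at least 4 times lower in muscle. *EGR-3*, an immediate early transcription factor, was expressed in 64 and 41 cells. The other 2 contigs on the neoblast side were a *beta-actin* (dd_Smed_v4_1610_0_1), in 92 muscle and 27 non-muscle cells, and the neuropeptide convertase *PC-2*, in 25 and 8 cells.

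The remaining lists were transcripts that the study had screened by in situ hybridization after ranking them on these muscle cells. Counts in favour of muscle can follow from that choice and are no independent evidence. Of 7 enzymes of energy metabolism, such as the carnitine transferase *CPT2* (15 muscle and 22 non-muscle cells), 1 had the higher mean in muscle. The share over all transcripts in at least 3 cells of either class was 53%. All 9 ion channels and receptors had the higher mean in muscle but were rare, each in 1.74 to 12.2% of muscle cells. The large-conductance potassium channel *KCNMA1* was expressed in 10 muscle and 0 non-muscle cells, the cation channel *TRPC4* in 7 and 0, and the calcium-activated potassium channel *KCNN3* in 14 and 2. Of these 9, 6 were at least 4 times higher in muscle, against 6.12% of all transcripts. Of 10 transcription factors outside the mRGs, 9 had the higher mean in muscle, against 53% of all transcripts. Their summed level in a muscle cell had a median of 276 cpm and a highest value of 157367 cpm. *ALX1*, whose mean was set by a single cell, is described below. *NKX1-2* was expressed in 15 muscle and 0 non-muscle cells, *BNC1* in 17 and 0, *TCF4* in 35 and 12, and *EYA1* in 17 and 2.

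Transcripts with a hybridization signal in other tissues were found in both classes. They too were screened after ranking on muscle cells, so counts in favour of muscle can follow from that choice. Of the 13570 transcripts in at least 3 muscle cells, 8229 had the higher mean in muscle, 959 of them at least 4 times. Of 46 from the central nervous system, 33 had the higher mean in muscle and 8 were at least 4 times higher, against 53% and 6.12% of all transcripts. *CELF5* had no read in any of the 115 muscle cells and was expressed in 5 non-muscle cells. Of 15 measured from the epidermis 9 were higher in muscle, of 12 from the gut 6, and of 4 from the pharynx 4. The epidermis and gut counts lay near the share of 53% over all transcripts. The gut list summed to a median of 1826 cpm in muscle and 1996 in non-muscle cells, and its contig dd_Smed_v4_1_0_1 was expressed in all 115 muscle and all 62 non-muscle cells.

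The position genes were widespread but patchy. Of 44 mRGs, 43 were in the table, and all 43 were expressed in at least 1 muscle cell. A muscle cell expressed 12.9 ± 4.7 of them (SD, n = 115; lowest 1, highest 26) and a non-muscle cell 6.8 ± 3.2 (n = 62). Their summed level had a median of 5048 cpm in muscle and 1174 in non-muscle cells. In muscle 39 of 43 had the higher mean, 26 of them at least 4 times, against 53% and 6.12% of all transcripts. The most widespread were *IGFALS* (94 muscle cells), *wntA* (89), dd_13735 (80), the frizzled receptor *fz4-4* (75) and the receptor *ptk7* (68). The Wnt ligand *wntP-2* was expressed in 45 muscle and 0 non-muscle cells. The secreted Wnt inhibitor *notum* in 6, the ligand *wnt1* in 6 and *CSMD1* in 4 muscle cells were among the rarest. Since the study chose these genes on the axial differences of these muscle cells, their spread over regions only describes the choice. A choice made on muscle cells can also favour a higher level in muscle, so the counts by class are no independent evidence. Of the 37 in at least 12 muscle cells, 31 had more than 10% of their variance between regions (omega squared), as had 8.04% of all 8398 transcripts in at least 12 muscle cells.

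Variation between single muscle cells was measured as the squared coefficient of variation of cpm over the running median of transcripts of similar mean. Over the 1452 transcripts in at least 50% of muscle cells, 96 (6.61%) exceeded 2 times that median. Collagens varied more than transcripts of like level and contractile transcripts did not. The 7 collagens had a median of 3.36 times, with *COL24A1* dd_Smed_v4_402_0_1 at 4.21, dd_Smed_v4_702_0_1 at 3.53, *COL1A2* at 3.49 and *COL24A1* dd_Smed_v4_649_0_1 at 3.36. The *COL4A6* contigs stood apart from these, at 1.19, 0.606 and 0.499 times. The 5 contractile members expressed widely enough had a median of 0.830 times, and the 8 neoblast members 0.804. Measured as the variance of log2(cpm + 1), the neoblast median was 1.27 times, above 1, with 4 of 8 members above 1. *FBN2* reached 4.80 times and *TRAF-2B* 2.55. Cells of number block C alone gave a contractile median of 1.05, above 1, and a collagen median of 4.75.

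**Figure D4:**
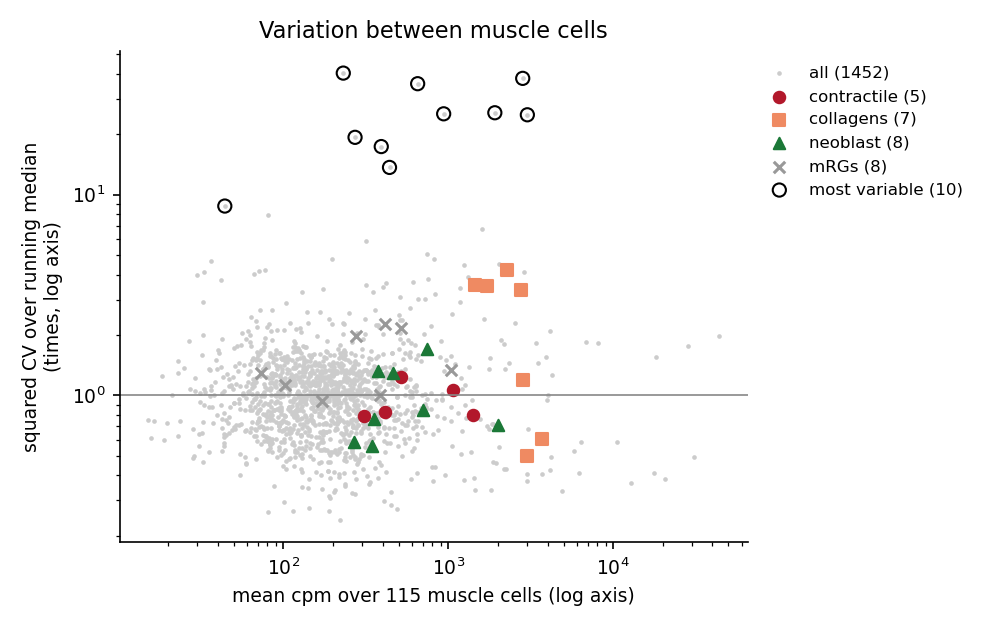
Squared coefficient of variation over the running median (vertical axis, times, log axis) against the mean level in 115 muscle cells (horizontal axis, cpm, log axis), with 1 point for each of 1452 transcripts. The *COL24A1* and *COL1A2* contigs lay between 3.36 and 4.21 times, the contractile transcripts between 0.787 and 1.24, and the 10 most variable transcripts between 8.78 and 40.4.

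The 10 most variable transcripts had no name and were led by few cells. dd_Smed_v4_41335_0_1 stood at 40.4 times the running median, and a single cell of region 2 held 80.3% of its summed cpm. dd_Smed_v4_53369_0_1 stood at 38.0, dd_Smed_v4_15789_0_1 at 35.8, dd_Smed_v4_3082_0_1 at 25.6, dd_Smed_v4_8115_0_1 at 25.3 and dd_Smed_v4_4621_0_1 at 25.03. These last 5 varied together (Spearman's rho between pairs 0.50 to 0.80 over 115 cells). Together they took 40.5% of the reads of 1 cell of region 10, 20.9% of a cell of region 9 and 16.3% of another cell of region 10, then 5.11% in the next cell and a median of 0.0997% over muscle cells. In non-muscle cells they reached 12.9%. The 3 leading cells belonged to block C. A second set of 4, dd_Smed_v4_41335_0_1, dd_Smed_v4_38884_0_1, dd_Smed_v4_35290_0_1 and dd_Smed_v4_16383_0_1, took 6.28% of the reads of the same cell of region 2 and 0.574% of the next cell. The tenth of the list, dd_Smed_v4_44765_0_1, again peaked in the leading cell of region 10. Without the 8 cells that lead these transcripts, 2 of the 10 stayed among the 10 most variable, while the collagen median was 3.49. By the variance of log2(cpm + 1) 1 of the 10 stayed, with dd_Smed_v4_41335_0_1 at 0.577 and dd_Smed_v4_4621_0_1 at 1.24 times, and after thinning 5 stayed.

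Transcripts with the least variation for their level were dd_Smed_v4_2730_0_1 (0.239 times, levels of 32.9 to 1108 cpm with a median of 173), dd_Smed_v4_106_0_1, dd_Smed_v4_225_0_1, dd_Smed_v4_244_0_1 and dd_Smed_v4_341_0_1 (0.262 to 0.270 times). All 5 were expressed in at least 97 muscle and 49 non-muscle cells.

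Variance between regions was small for most transcripts, with a median omega squared of 1.29%. Among widely expressed transcripts it was highest for dd_Smed_v4_5112_0_1 (46.6%), dd_Smed_v4_19_0_1 (42.8%), dd_Smed_v4_53369_0_1 (42.6%), dd_Smed_v4_3815_0_1 (42.0%) and dd_Smed_v4_44765_0_1 (40.4%). dd_Smed_v4_5112_0_1 averaged 308.8 cpm in region 2, against 6.65 in region 5 and 98.7 in region 10. dd_Smed_v4_19_0_1 averaged 376 cpm in region 9 and 8.98 in region 2. dd_Smed_v4_3815_0_1 averaged 245 cpm in region 9 and 12.9 in region 3. From region 1 to 10 the means of dd_Smed_v4_3815_0_1 were 35.7, 13.7, 12.9, 25.8, 65.1, 109, 77.2, 158, 245 and 100.2 cpm, lower in regions 1 to 4 than in regions 5 to 10. The slope towards the tail was 0.47 for dd_Smed_v4_3815_0_1 (edgeR p = 0.00558 without adjustment, adjusted p = 0.512) and 0.47 for dd_Smed_v4_19_0_1 (p = 0.00682, adjusted p = 0.535). Number blocks were unevenly spread over regions, and region and block cannot be told apart for them outside the regions that held several blocks. Among collagens omega squared ran up to 8.04%, and for TNNI2 it was 2.23%.

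Collagens rose and fell together from cell to cell. Over 115 muscle cells all 21 pairs of the 7 collagens had a positive Spearman's rho, with a median of 0.557, and the highest was 0.77 between *COL24A1* contigs dd_Smed_v4_402_0_1 and dd_Smed_v4_649_0_1. After centring within region and number block the median was 0.535. Cells of this comparison share depth and amplification, and the lists came at least in part from loadings of the same cells. The values are therefore descriptions without a test. TNNI2 and *CNN3* had a rho of 0.68. The 7 contractile transcripts other than *XIRP2* had a positive rho with collagens in 48 of 49 pairs, with a median of 0.287.

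Neoblast transcripts, taken here as a second group, mostly moved against the collagens. All 28 pairs among the 8 had a positive rho (median 0.365), and 54 of 56 pairs with collagens had a negative one (median −0.272). The 8 were listed on the same side of a component of these cells, so positive pairs among them can follow from that choice. Levels are shares of a fixed total, so a rise of 1 group lowers the others. The size of that effect was not tested. TNNI2 and *SMEDWI-1* stood at −0.53, or −0.51 within region and block. *XIRP2* went with the neoblast group and not with the muscle transcripts, positive in 8 of 8 pairs with it (median 0.346) and negative in 7 of 7 pairs with collagens (median −0.327). The groups were not exclusive in single cells. *COL1A2* and *SMEDWI-1* were both expressed in 66 muscle cells, *COL1A2* alone in 25, *SMEDWI-1* alone in 21 and neither in 3. At equal depth the counts were 54, 30, 24 and 2 of 110 cells.

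The most abundant transcripts had no name, and the 10 highest by mean cpm were expressed in every muscle cell. dd_Smed_v4_1635_1_1 averaged 43891 cpm in muscle and 64040 in non-muscle cells. Its muscle levels ran from 2356 to 222839 cpm with a median of 26121. dd_Smed_v4_37_0_1 averaged 30768 cpm in muscle and 5180 in non-muscle cells, with medians of 28227 and 632, and was higher in muscle in all 9 regions. It was the only 1 of the 10 at least 4 times higher in either class. The others were dd_Smed_v4_300_0_1, dd_Smed_v4_258_0_1, dd_Smed_v4_297_0_1, dd_Smed_v4_957_0_1, dd_Smed_v4_753_0_1, dd_Smed_v4_344_0_1, dd_Smed_v4_5257_0_1 and dd_Smed_v4_31_0_1, with muscle means of 28403 down to 6872 cpm.

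Of these, dd_Smed_v4_1635_1_1, dd_Smed_v4_300_0_1, dd_Smed_v4_297_0_1, dd_Smed_v4_5257_0_1 and dd_Smed_v4_31_0_1 moved as one. Their pairwise rho over 115 muscle cells was 0.93 to 0.99, and with dd_Smed_v4_37_0_1 it was −0.22 to −0.30. The set was put together after its values were seen. Its summed share of a cell's reads ran from 0.709 to 54.6% with a median of 6.62%. Muscle cells of block A averaged 5.74%, of block B 9.54% and of block C 18.5%, and region 9 averaged 30.1% against at most 16.3% in another region. Non-muscle cells showed the same order of blocks, at 4.04%, 14.2% and 22.0%. The larger the share, the fewer transcripts a muscle cell expressed at equal depth (rho −0.55, n = 110), and in non-muscle cells rho was −0.74 (n = 62). At equal depth every cell has the same total of reads, so a larger share of the set leaves fewer reads for all other transcripts. A negative rho can therefore follow from the measure itself, and whether any relation remains beyond that was not tested. The part of the number block in the levels of the set was not tested further.

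**Figure D5:**
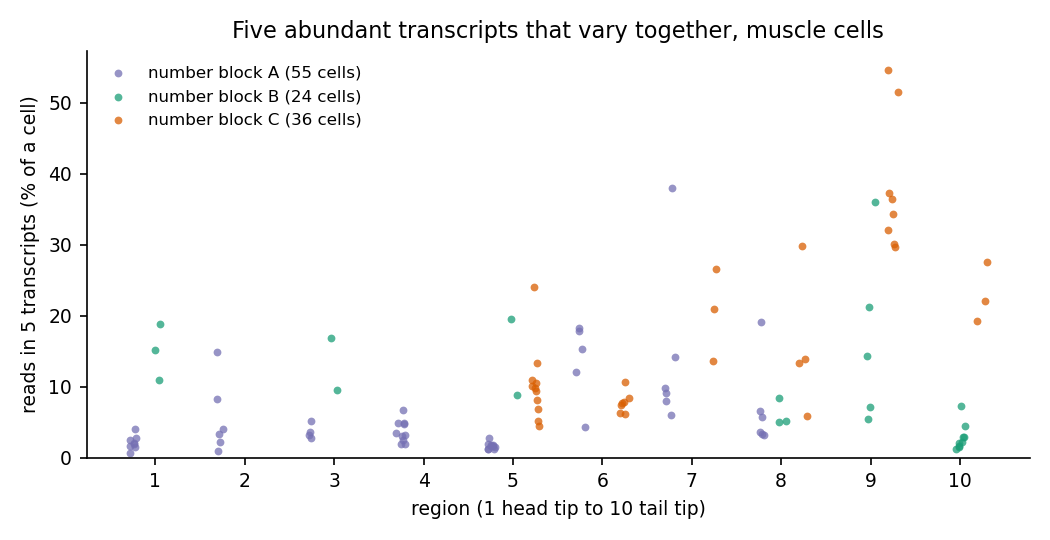
Share of a muscle cell's reads in 5 abundant transcripts that vary together (vertical axis, %) by region (horizontal axis), with 1 point per cell coloured by number block. Cells of region 9 reached 54.6%, and block C cells averaged 18.5% against 5.74% in block A.

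Number blocks also set 1 transcription factor apart. *ALX1* (dd_Smed_v4_21801_0_1), a match to a paired-type homeobox gene, was expressed in 22 of 36 muscle cells of block C, and in 0 of 55 of block A and 0 of 24 of block B. Within region 5, which held 3 blocks, it was expressed in 8 of 11, 0 of 10 and 0 of 2 muscle cells of blocks C, A and B. Non-muscle cells expressed it in 6 of 29, 0 of 16 and 1 of 17. It was the only transcript in at least 50% of the muscle cells of 1 block and in none of the others. A single cell of region 5 held 157162 cpm of *ALX1* and 150450 cpm of *POLN* (dd_Smed_v4_30834_0_1), a match to a DNA polymerase, out of 146142 reads. *POLN* itself was expressed in 16 of 55, 16 of 24 and 22 of 36 muscle cells of blocks A, B and C. The mean *ALX1* level in muscle, 1481 cpm, was therefore set by that cell, and its median was 0.

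Along the axis few transcripts of muscle cells passed edgeR's test for a slope with regions as the samples, and the number depended on the tool. The reads of the muscle cells of each region were summed, and a slope per region (log2, positive towards the tail) was fitted to the 10 sums with edgeR's quasi-likelihood test. In such sums a change in the share of cells and a change in the level per cell cannot be told apart. Of 13570 transcripts 2 passed an adjusted p of 0.05 (0.0147%), 1 rising towards the tail (0.00737%) and 1 towards the head (0.00737%). Without adjustment 5.17% were under 0.05. DESeq2 called 158 transcripts on the same 10 sums, 13 of them mRGs, with 1329 under 0.05 without adjustment, and limma called 0, with 690. The transcript rising towards the head was the FGFRL gene *ndl-2*, 1 of the mRGs, expressed in 16 muscle cells (slope −1.75, adjusted p = 0.00587, edgeR). It lost the call without region 1 (slope −1.73, adjusted p = 0.319) and with limma (slope −1.09, adjusted p = 0.132).

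The other was dd_Smed_v4_37_0_1, the abundant transcript of muscle cells described above. Its mean level per muscle cell from region 1 to 10 was 16517, 20375, 30560, 34443, 27823, 29650, 38426, 40946, 29799 and 37116 cpm. Regions 1 and 2 were lowest and regions 7, 8 and 10 highest, with a dip in regions 5, 6 and 9. The slope was 0.20 ± 0.03 per region (SE, n = 10 region sums, edgeR adjusted p = 0.00587). The direction was the same in all 16 alternative fits, but 6 of them lost the call. The slope was 0.18 without region 1 (adjusted p = 0.0985), 0.19 without region 2 (0.247), 0.19 with DESeq2 (0.185), 0.14 with library size alone (0.275), 0.10 with limma on log2 of mean cpm + 1 (0.415) and 0.19 with the stricter filter of 12 cells (0.171). With the number block as a covariate it was 0.20 (adjusted p = 0.00250) and 15 transcripts passed. Among the left-out regions, region 10 moved the number of calls most, to 30 transcripts, 28 of them towards the tail.

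No member of the lists outside the mRGs passed that test. Without adjustment, 2 of 8 contractile members (TNNI2 and *DjMHC-B*), 2 of 7 collagens, 3 of 11 other matrix and adhesion members, 1 of 8 neoblast members, 1 of 8 tested epidermal lineage members and 0 of 9 differentiated members were under 0.05, against 5.17% of all transcripts. For TNNI2 the slope was 0.14 (edgeR adjusted p = 0.749) and the region means lay between 980 cpm in region 2 and 2256 cpm in region 7, with single-cell ranges that overlapped between all regions. The lists were named from the study's annotation of these same cells, so their counts are no independent evidence of a slope. Among the mRGs, chosen for such differences, 28 of 43 were under 0.05.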

How the data were processed

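The authors trimmed reads with cutadapt, aligned them to the dd_Smed_v4 transcriptome with Bowtie, dropped prominent ribosomal and mitochondrial contigs, summed isotigs and deposited raw read counts for 177 cells. The sources also name CASAVA 1.7.0. The authors' own comparison tables hold fold estimates and scores of regional contrasts and were not used. No genome, transcript or protein sequence was used. Members, lists and tests were chosen with earlier results of these data known. Counts were divided by each cell's total for cpm. Equal depth means 50000 reads drawn per cell without replacement (seed 1), which left out 5 muscle cells. Ratios used mean cpm + 1. The running median spanned 101 transcripts. The slope used sums per region, over transcripts expressed (above 2 reads) by 3 or more muscle cells, with TMM and glmQLFTest in edgeR 4.0.16 (R 4.3.3) with Benjamini-Hochberg adjustment. DESeq2 1.42.0, limma 3.58.1, other filters, depths and left-out regions were alternatives. Regions were the samples for every test, so p-values measure only the spread between them. Per-cell binomial intervals were exact (Clopper-Pearson, 95%), and the limit for a count of 0 was 3 counts of the total. No doublet caller was run. Named transcripts were the list members, the 10 most abundant, the 10 most and 5 least variable, the 5 with the highest omega squared, the called slopes and the 10 largest ratios in each direction. Scripts were tested on simulated counts.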

Additional observations from a re-analysis of the deposited data

Results flagged for a closer look

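Values in muscle cells of 8 region means lay far from the other 9 regions by Dixon's 95% criterion. In all, 23 quantities were examined, and chance gives about 1 in 20. Region 10 had the most reads per cell, 1374430 against 420161 in the next region. The other 7 were in region 9. There the 50 most abundant transcripts of a cell held 59.5% of its reads against 39.7% in the next region, and the 5 abundant transcripts that vary together held 30.1% against 16.3%. Mean levels in region 9 were 130638 cpm for dd_Smed_v4_1635_1_1 (next region 62644), 49563 cpm for dd_Smed_v4_297_0_1 (29672), 26992 cpm for dd_Smed_v4_957_0_1 (19000), 23308 cpm for dd_Smed_v4_5257_0_1 (11622) and 20231 cpm for dd_Smed_v4_31_0_1 (9828). These 7 quantities share the same cells and largely the same transcripts, so they are not independent.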

How the results depend on the processing

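The count of transcripts with a slope was 2 and changed with the fit. It was 158 with DESeq2 (111 towards the tail), 1 with library size alone, 0 with limma on log2 of mean cpm + 1 (690 under 0.05 without adjustment), 7 of 20887 without the filter, 1 of 8398 with the stricter filter and 15 with the number block as a covariate. Leaving out each region in turn gave 0 to 30, with 0 without region 1 (961 under 0.05 without adjustment), 1 without region 2 and 30 without region 10. Transcripts in at least 90% of muscle cells numbered 215, and 129 after thinning, 353 when 1 read sufficed and 376 in block B alone. Transcripts over 2 times the running median numbered 96, and 56 after thinning, 34 with the variance of log2(cpm + 1) and 157 in block C alone, where the contractile median of 1.05 fell on the other side of 1, as did the neoblast median of 1.27 with the variance of log2(cpm + 1). Transcripts at least 4 times higher in non-muscle numbered 38, and 67 with cpm of summed reads. The difference in transcripts at equal depth ran from −152 to −40.0 and that in the top 50 share from −6.79 to −2.59 points with each region left out, and neither passed in any of its 14 alternatives. The collagen median stayed above 3 times in all 6. Alternatives by number block, those without region 9 and those without the 8 leading cells were chosen after seeing the data. The cause of these changes was not tested. The design was limited by 10 regions with 6 to 23 muscle cells each and by cells under 50000 reads. Each cell number occurs once, so numbers pair no cells, and classes were compared within regions.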
